A study of Mus musculus with 14 samples.

Results

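The genes described here are 36 skeletal muscle genes, picked by name from the 55291 gene symbols in the table of counts from mouse tibia: the fast and slow proteins of the sarcomere, Z-disc proteins and muscle metabolic genes, without the myosin heavy chains. All 36 were in the table and all 36 passed the filter on low counts, which left 21761 genes for testing. Of the 36, 10 belong to the thin filament and its troponin switch, 7 to the thick filament and titin, 12 to the Z-disc and fibre attachment, 5 to metabolism and calcium buffering, and 2 encode ubiquitin ligases.

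All mice were wild-type C57Bl/6 females. Ovariectomized (OVX) mice received hippuric acid (OVX-HA, n = 3), 3'(3'hydroxyphenyl) propionic acid (OVX-PPA, n = 2), zoledronic acid, a bisphosphonate (OVX-ZA, n = 3), or PBS (OVX-PBS, n = 3), and the control mice had sham surgery (sham, n = 3). Compounds or PBS were given for 8 weeks, starting 2 to 4 days after the operation. The sources used here give no doses, no ages and not what the sham mice received. Whether every library stands for its own mouse is not labelled, so p-values measure the spread between libraries, which may be technical.

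The sarcomere is the contractile unit of striated muscle. Thin filaments of actin slide along thick filaments of myosin when calcium binds troponin, and the Z-disc anchors the thin filaments at each end. Fast and slow fibres build the same machine from different paralogs: fast fibres use Tnnt3, Tnni2, Tnnc2, Mylpf and Myl1, and slow fibres use Tnnt1, Tnni1, Tnnc1, Myl2 and Myl3. Tnnc1, Myl2 and Myl3 also serve the heart. Muscle fibres are not cells of bone, and the tibia is covered by muscles that attach to it. In bulk RNA, fewer muscle fibres and less of a transcript per fibre cannot be told apart.

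Promoters of the genes were read from RefSeq (build GRCm38.p6), as the 250 bases before each annotated start. Of the 36 genes, 27 had an entry, with 33 windows in all. Fbxo32, Actn3, Tnnt3, Tnni2, Tcap, Xirp1, Myoz1, Neb and Myot had no window, so their promoters were not searched for any site. Those 33 windows were searched on both strands for the E-box CANNTG, bound by myogenic factors such as MyoD, and 30 of them (90.9%) held it, against 66.2% of all 32536 promoter windows of the same length. A MEF2 site was in 5 of 33 (15.2%, against 1.68% of all windows), a CArG box, the serum response factor site, in 4 (12.1%, against 1.48%), and the MCAT element CATTCC in 8 (24.2%, against 12.6%). Windows of the same gene can overlap and then count a site more than once. The 4 windows with a CArG box belong to 3 genes, because both Ldb3 windows hold the same site. The letters TATAAA were found in 5 of the 33 (15.2%, against 12.3% of all windows). The FOXO core GTAAACA was in 1 of 33, upstream of Trim63 (3.03%, against 3.17% of all windows). A match is a description of the letters and not a shown binding site. The 5 windows below stand for the patterns in the results: the skeletal actin, a fast light chain, a slow troponin, myoglobin, and a ubiquitin ligase. Capitals mark the E-box, the CArG box and the FOXO core, which do not overlap in these windows.
Acta1, chr8:123894776-123895025, minus strand: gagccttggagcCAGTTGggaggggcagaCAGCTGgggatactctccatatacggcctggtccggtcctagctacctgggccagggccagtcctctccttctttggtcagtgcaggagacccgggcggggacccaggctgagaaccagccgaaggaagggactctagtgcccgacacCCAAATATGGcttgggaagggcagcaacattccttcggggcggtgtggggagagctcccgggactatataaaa
Mylpf, chr7:127211358-127211607, plus strand: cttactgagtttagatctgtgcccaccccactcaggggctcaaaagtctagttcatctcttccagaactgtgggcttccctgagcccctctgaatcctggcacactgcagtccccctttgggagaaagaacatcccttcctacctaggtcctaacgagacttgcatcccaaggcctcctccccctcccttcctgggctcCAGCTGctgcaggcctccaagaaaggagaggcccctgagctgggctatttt
Tnnc1, chr14:31208062-31208311, plus strand: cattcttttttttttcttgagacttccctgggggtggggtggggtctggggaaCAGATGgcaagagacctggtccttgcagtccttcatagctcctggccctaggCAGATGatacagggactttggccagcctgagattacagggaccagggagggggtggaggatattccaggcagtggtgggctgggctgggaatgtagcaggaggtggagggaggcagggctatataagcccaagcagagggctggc
Mb, chr15:77022788-77023037, minus strand: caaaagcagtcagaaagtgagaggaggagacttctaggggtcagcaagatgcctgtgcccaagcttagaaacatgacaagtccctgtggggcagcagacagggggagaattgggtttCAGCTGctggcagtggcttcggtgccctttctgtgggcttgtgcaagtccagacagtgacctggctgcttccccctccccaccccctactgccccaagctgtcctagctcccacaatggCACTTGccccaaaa
Trim63, chr4:134314870-134315119, plus strand: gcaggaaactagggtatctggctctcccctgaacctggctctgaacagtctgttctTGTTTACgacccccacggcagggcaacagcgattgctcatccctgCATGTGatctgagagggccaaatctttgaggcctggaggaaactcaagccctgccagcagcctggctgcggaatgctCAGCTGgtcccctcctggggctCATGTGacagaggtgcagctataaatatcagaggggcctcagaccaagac

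Depth was 31.3 to 35.4 M estimated counts for OVX-HA, 18.7 and 29.7 M for OVX-PPA, 11.9 to 25.1 M for OVX-ZA, 20.1 to 35.2 M for OVX-PBS and 29.2 to 32.6 M for sham (M, counts in units of 1e+06). The smallest count of any of the 36 genes in any library was 1037, so counting error was small beside the spread between libraries. The label of the tissue is bone, and both bone and muscle were in the RNA: summed over 9 osteoblast and osteocyte markers the level was 995 to 1660 CPM in the 3 OVX-ZA libraries and 2340 to 5770 CPM in the other libraries (CPM, a gene's counts per 1e+06 counts of the TMM-scaled library). The 7 osteoclast markers summed to 1200 to 2250 CPM in OVX-ZA and 455 to 938 CPM in the others. So the bone markers move with OVX-ZA, and their part in its comparisons was not tested. Lymph node markers summed to 59.4 and 121 CPM in OVX-ZA 1 and 2 and 107 CPM in sham 3, against 17.2 to 35 CPM elsewhere. Central nervous system transcripts set 2 libraries apart. Their 6 markers summed to 183 CPM in OVX-HA 2 and 167 CPM in OVX-PBS 1, against 919 to 2650 CPM in the other 12 libraries, and results without this pair are given where they differ. The 9 heart muscle markers summed to 46.1 to 119 CPM. Nppa, Nppb, Mybpc3 and Myl7 stayed under 1 CPM in every library, while Tnni3 was 0.93 to 2.69, Tnnt2 3.89 to 6.4, Myl4 5.1 to 10.6, Myh6 6.18 to 11.1 and Actc1 21.4 to 96.7 CPM. The smooth muscle markers, 8 in number, summed to 227 to 439 CPM.

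The 36 genes took 5.71, 5.16 and 7.63% of all counts in the OVX-HA libraries, 5.61 and 5.88% in OVX-PPA, 7.19, 5.88 and 7.73% in OVX-ZA, 7.28, 7.59 and 5.70% in OVX-PBS and, in sham, 5.77, 4.47 and 7.22%. Exact (Clopper-Pearson) 95% binomial intervals, which cover counting error only, were narrow, for example 4.466 to 4.48% in sham 2. Every group with 3 libraries therefore held libraries both under 6% and over 7%, and the groups overlapped. After TMM scaling their summed level was highest in OVX-PBS 1 (83690 CPM) and lowest in sham 2 (41060 CPM), a ratio of 2.04. Of the 36 genes, 25 had their lowest level in sham 2 and 7 in OVX-ZA 2, and 15 had their highest in OVX-PBS 1. The 5 slow genes Tnnt1, Tnni1, Tnnc1, Myl2 and Myl3 were highest in OVX-HA 2.

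**Figure D1:**
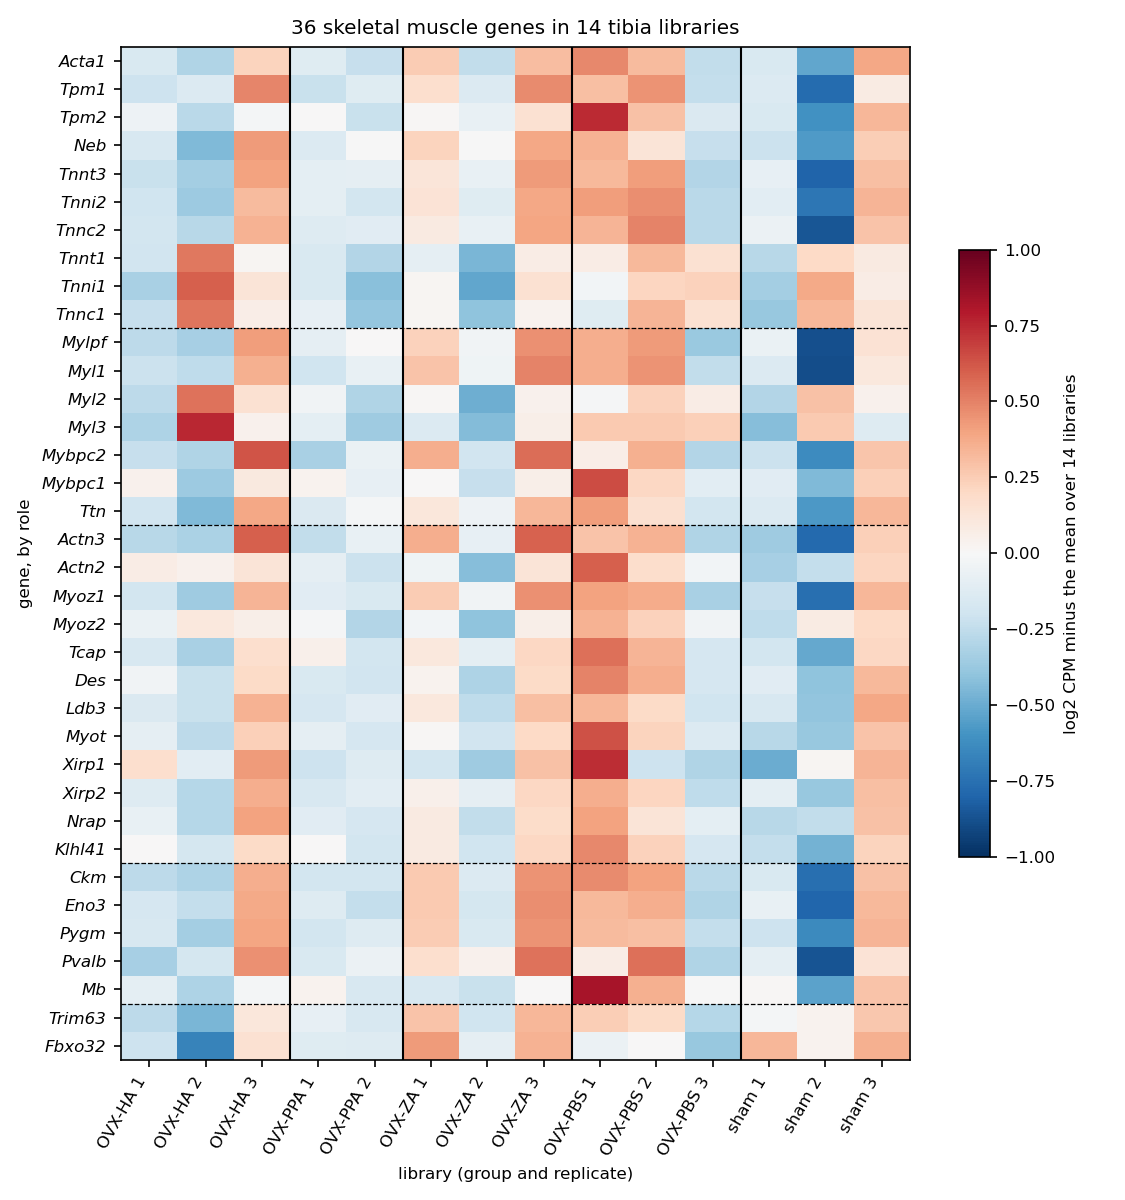
Level of each of the 36 genes (rows, ordered by role) in each of the 14 libraries (columns, by group), as log2 CPM minus the mean of that gene over the libraries. Most genes share the same high and low columns, with sham 2 the lowest for 25 of 36, and the slow genes Tnnt1, Tnni1, Tnnc1, Myl2 and Myl3 peak in OVX-HA 2.

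On a scale of CPM per kilobase of annotated exon, which allows genes to be compared, skeletal actin stood first. The median level over the 14 libraries was 6620 CPM per kb for Acta1, 2640 for Tnnt3, 2260 for Tnnc2, 1840 for Mylpf and 1780 for Ckm. Fast paralogs thus held the top of the order with actin and muscle creatine kinase. Slow paralogs were lower, with a median level of 190 CPM per kb for Myl2, 184 for Tnnc1, 153 for Tnnt1, 101 for Myl3 and 48.9 for Tnni1. At the bottom were the Z-disc gene Myoz2 (36.8), the ubiquitin ligases Fbxo32 (27) and Trim63 (24.9), and Xirp1 (21.7 CPM per kb), an actin-binding protein of muscle attachments. Exon lengths are unions over all isoforms, so a gene with many isoforms such as Ttn (37.2 CPM per kb) is set low on this scale. With Acta1 left out, since both kinds of fibre use it, the summed CPM of 9 fast genes (Tnnt3, Tnni2, Tnnc2, Mylpf, Myl1, Actn3, Mybpc2, Myoz1 and Pvalb) was 4.15 to 9.64 times that of the 7 slow genes (Tnnt1, Tnni1, Tnnc1, Myl2, Myl3, Mybpc1 and Myoz2), with a median of 7.78. This ratio leans on Mybpc1, which did not follow the other slow genes (below). Its group means were 973 to 1251 CPM, beside slow sums of 1880 to 3070 CPM, and the ratio without it was not computed.

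None of the 36 genes passed the edgeR test in any of the 10 comparisons between groups, with Benjamini-Hochberg adjustment over all 21761 genes at an FDR of 0.05. The background was as low: 0% of all genes passed in 9 of the comparisons, and 1 gene (0.0046%) passed in OVX-ZA against OVX-HA and in the test of any difference among the 5 groups. DESeq2, as the other tool, also called 0 of the 36 genes in every comparison. In the test of any difference Fbxo32 and Mb stood first among them, both with adjusted p = 1, and 0 of the 36 had an unadjusted p under 0.05, against 1.85% of all genes (edgeR). Over the 36 genes the smallest adjusted p was 1 in OVX-HA and in OVX-PPA against OVX-PBS, 0.899 in OVX-ZA against OVX-PBS and 0.913 in OVX-PBS against sham. What follows describes levels and differences that did not pass; differences are log2 fold changes ± standard error from that edgeR fit. The 10 comparisons share libraries: the compounds are each set against the same 3 OVX-PBS libraries.

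In OVX-PBS against sham, 34 of the 36 genes had a log2 difference above 0, against 51.4% of all genes, with a median of 0.30 (all genes 0.01). The range was -0.38 for Fbxo32 to 0.48 for Mb. None had an unadjusted p under 0.05 (edgeR; 2.73% of all genes had), and the smallest adjusted p was 0.913. The groups did not overlap for 1 gene, Fbxo32, which was below sham in every OVX-PBS library, against 3.6% of all genes. The median rests on single libraries: it was 0.18 without OVX-PBS 1, 0.11 without sham 2 and 0.55 without sham 3, and without sham 3 10 of the 36 genes had an unadjusted p under 0.05, against 7.11% of all genes. The 5 tendon markers lay on the same side and summed to 190, 145 and 157 CPM in OVX-PBS and 114, 131 and 135 CPM in sham. Most of each sum came from Thbs4, and the share of all genes above sham in every OVX-PBS library is not given here. Kera was 1.16 ± 0.312, adjusted p = 0.913 (edgeR), and 0.75 without OVX-PBS 1. The part of the tendon markers in the muscle genes' differences was not tested.

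In OVX-HA against OVX-PBS, 31 genes had a difference below 0 and 5 above, with a median of -0.17 (all genes 0.01, of which 53.2% were above 0). Mb was the gene with an unadjusted p under 0.05 (1 of 36; 1.47% of all genes) and the gene whose groups did not overlap, against 1.83% of all genes with every OVX-HA library below. Without OVX-HA 2 and OVX-PBS 1 the median was -0.02, and with 1 library left out it was -0.07 without OVX-PBS 1 and -0.40 without OVX-HA 3. In OVX-PPA against OVX-PBS, 35 genes were below 0 and 1 above, with a median of -0.33 (all genes -0.02, 47% above 0) and 0 with an unadjusted p under 0.05 (1.87% of all genes, edgeR). Both OVX-PPA libraries were below all OVX-PBS libraries for 6 genes (Tnnt1, Tnni1, Myl2, Myl3, Actn2 and Nrap), a share of 36 to be read beside 8.77% of all genes. In OVX-ZA against OVX-PBS, 25 genes were below 0 and 11 above, with a median of -0.08 (all genes -0.04, 43.8% above 0). Mb had an unadjusted p under 0.05 (1 of 36; 3.36% of all genes), and Tnnt1 and Myl3 were below OVX-PBS in every OVX-ZA library, against 9.96% of all genes. That median turned to 0.07 without OVX-HA 2 and OVX-PBS 1, to 0.05 without OVX-PBS 1 alone and to 0.03 without OVX-ZA 2.

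**Figure D2:**
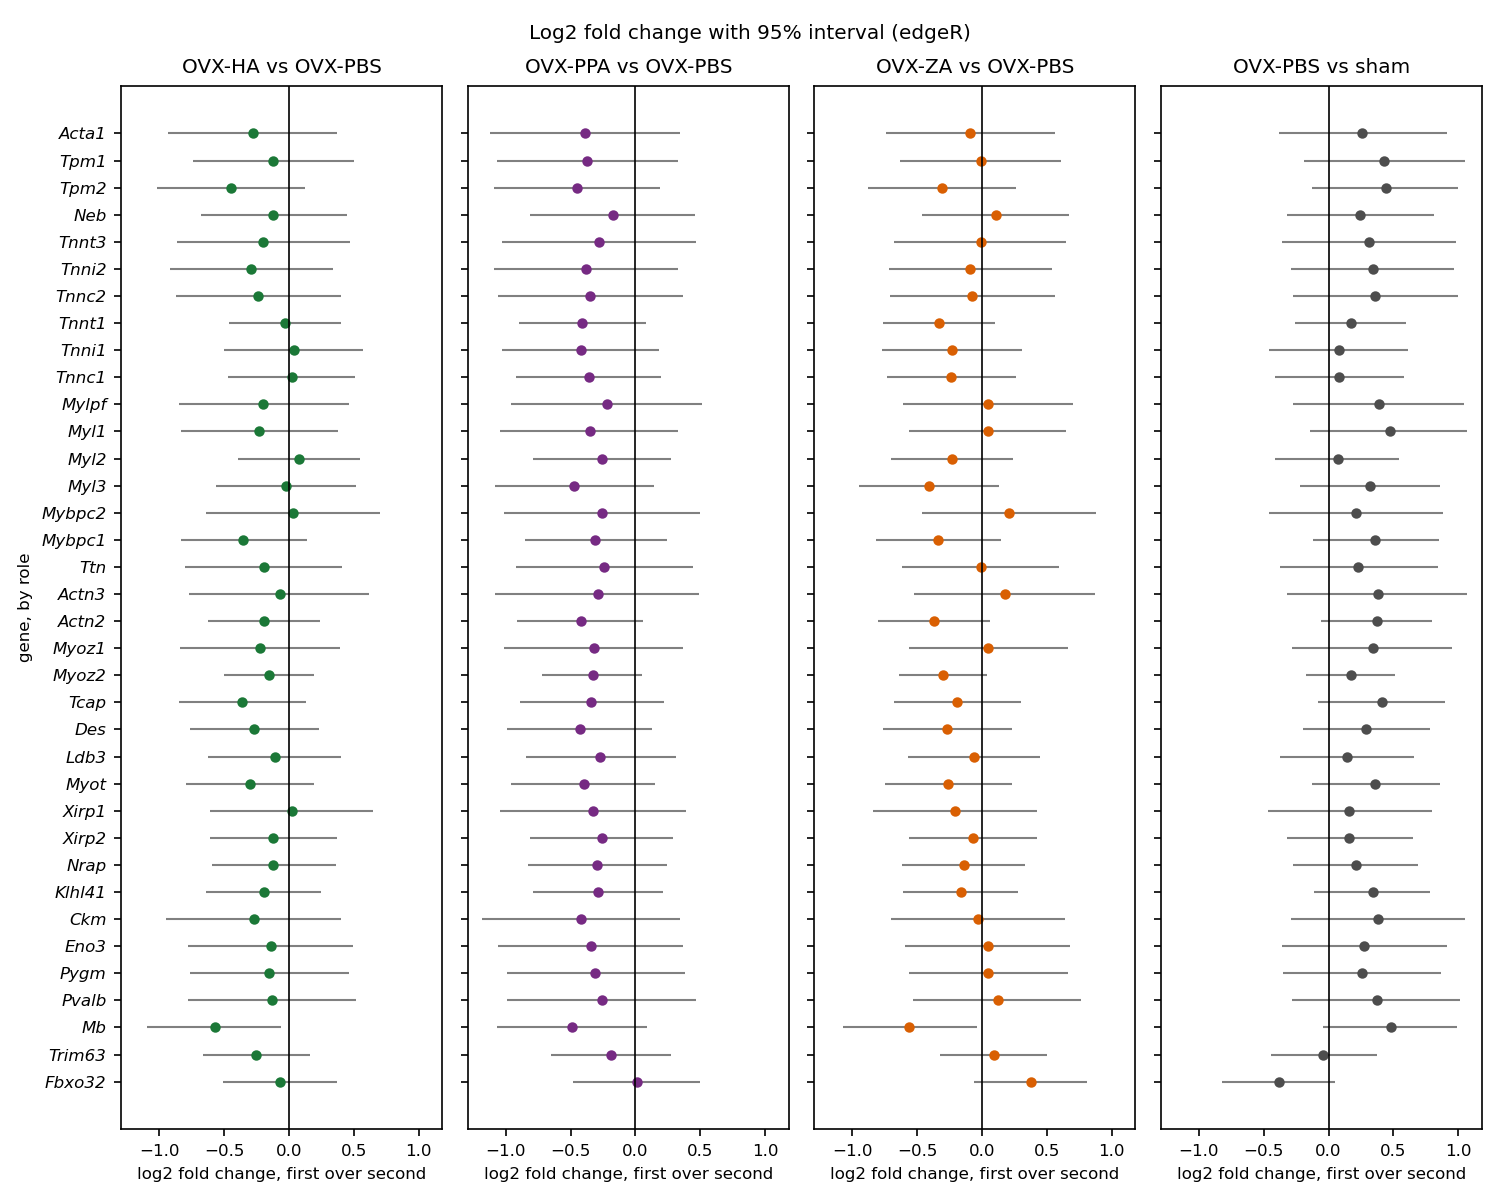
Log2 fold change of each of the 36 genes (rows, by role) with its 95% interval from edgeR, in the comparisons of OVX-HA, OVX-PPA and OVX-ZA with OVX-PBS and of OVX-PBS with sham. Nearly every interval spans 0; the intervals of Mb lie below 0 for OVX-HA and OVX-ZA against OVX-PBS without passing the adjustment.

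Thin filament genes were the most abundant. Acta1 (ENSMUSG00000031972, chr8:123891769-123894751, mm10), the actin of skeletal muscle thin filaments, measured 10039.5, 9047 and 13003 CPM in OVX-HA, 10260.2 and 9531 in OVX-PPA, 13344, 9404 and 13846 in OVX-ZA, 15601, 13943 and 9418 in OVX-PBS and, in sham, 10070.0, 7779 and 14645. The sham libraries alone spanned nearly the whole range, and the groups overlapped (0.26 ± 0.297 in OVX-PBS against sham). Actc1, the heart paralog with a nearly identical coding sequence, was 21.4 to 96.7 CPM, and how reads shared by the pair were counted is not known. Tpm2, a tropomyosin that covers the myosin sites on actin, measured 3141, 2694 and 3198 CPM in OVX-HA, 3256 and 2782 in OVX-PPA, 3282, 3077 and 3615 in OVX-ZA, 5452, 3976 and 2941 in OVX-PBS and, in sham, 2918, 2138 and 4090.4. The library OVX-PBS 1 stood highest, and the difference between OVX-HA and OVX-PBS (-0.45 ± 0.261; edgeR) was -0.20 without it. Tpm1 and Neb, a second tropomyosin and the ruler protein of the thin filament, had differences from -0.37 to 0.43 and from -0.17 to 0.24 in the same 4 comparisons.

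Troponin T ties the troponin complex to tropomyosin, troponin I inhibits contraction at rest and troponin C binds calcium. The fast troponin T Tnnt3 measured 3797, 3491 and 5844 CPM in OVX-HA, 4119 and 4145 in OVX-PPA, 4808, 4188 and 5943 in OVX-ZA, 5533, 5918 and 3611 in OVX-PBS and, in sham, 4170.3, 2538 and 5455. The slow Tnnt1 measured 285, 469.7 and 330.3 CPM in OVX-HA, 293 and 265 in OVX-PPA, 305, 236 and 342 in OVX-ZA, 343, 406 and 360.3 in OVX-PBS and, in sham, 269, 373 and 346. Sham 2 was the lowest library of the 14 for Tnnt3 and among the highest for Tnnt1. For the inhibitory subunit, fast Tnni2 measured 1659, 1479 and 2374 CPM in OVX-HA, 1777 and 1676 in OVX-PPA, 2099, 1753 and 2496 in OVX-ZA, 2546, 2630.2 and 1577 in OVX-PBS and, in sham, 1768, 1152 and 2415. Its slow counterpart Tnni1 measured 136, 258 and 186 CPM in OVX-HA, 154 and 128 in OVX-PPA, 173, 119 and 190.0 in OVX-ZA, 168, 198 and 200.3 in OVX-PBS and, in sham, 135, 223 and 179.7. Again sham 2 was lowest for the fast gene and, with OVX-HA 2, highest for the slow one. Among the calcium sensors, fast Tnnc2 measured 1669.6, 1567 and 2405 CPM in OVX-HA, 1729 and 1754 in OVX-PPA, 2014, 1802 and 2493 in OVX-ZA, 2403, 2673 and 1573 in OVX-PBS and, in sham, 1821, 1049.9 and 2304. Tnnc1, the slow sensor whose promoter is printed above, measured 159.8, 272 and 196 CPM in OVX-HA, 177 and 144 in OVX-PPA, 190.1, 142 and 192 in OVX-ZA, 173, 237 and 208 in OVX-PBS and, in sham, 144, 235 and 205. The levels of the slow sensor in OVX-PPA and OVX-ZA lay between 142 and 192 CPM and overlapped those of OVX-PBS.

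Thick filament genes split the same way. Mylpf, the fast regulatory light chain, measured 1647, 1565 and 2631 CPM in OVX-HA, 1846 and 1978 in OVX-PPA, 2308, 1921 and 2701 in OVX-ZA, 2527, 2647 and 1521 in OVX-PBS and, in sham, 1879, 1071 and 2175. Its slow partner Myl2 measured 305, 531 and 406 CPM in OVX-HA, 357 and 297 in OVX-PPA, 367, 259.8 and 375 in OVX-ZA, 362, 429 and 384 in OVX-PBS and, in sham, 298, 447 and 376. The groups overlapped for Mylpf in each comparison with OVX-PBS, while Myl2 was below all OVX-PBS libraries in both OVX-PPA libraries (-0.26 ± 0.245; edgeR). Mybpc2, the fast myosin-binding protein C, measured 1086, 1036 and 1972 CPM in OVX-HA, 1021 and 1218 in OVX-PPA, 1639, 1118 and 1879.8 in OVX-ZA, 1338, 1636 and 1042 in OVX-PBS and, in sham, 1102, 823 and 1545. Mybpc1, the slow form, was highest in OVX-PBS 1 (1615 CPM) and lowest in sham 2 (756 CPM), so here the slow gene was low where the fast genes were low. Titin (Ttn), the spring that spans from Z-disc to thick filament, was also highest in OVX-PBS 1 (5951 CPM) and lowest in sham 2 (2992 CPM).

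**Figure D3:**
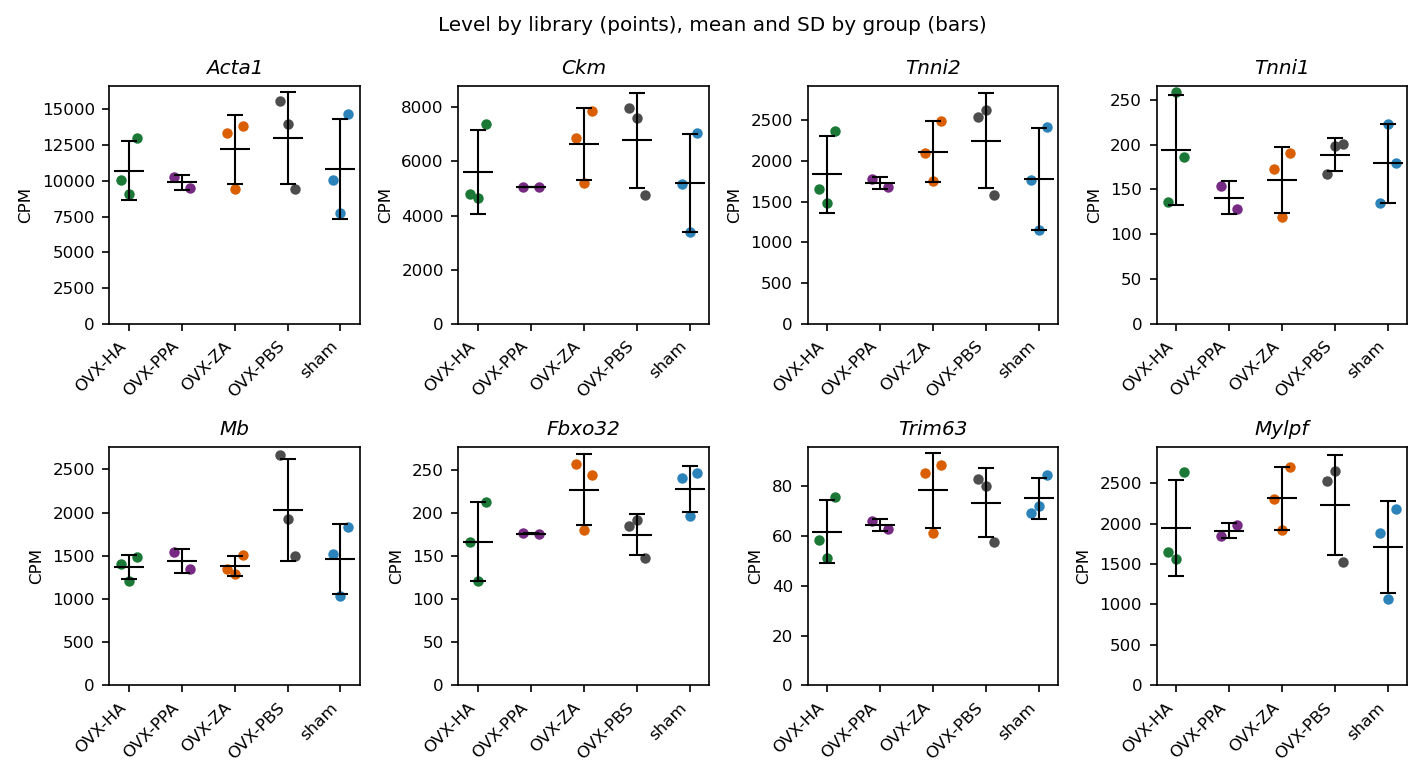
Level in CPM (y axis, from 0) of Acta1, Ckm, Tnni2, Tnni1, Mb, Fbxo32, Trim63 and Mylpf in each library (points) with the mean and SD of each group (bars). In each comparison with OVX-PBS the groups overlap for Acta1, Ckm, Tnni2 and Mylpf. For Ckm the OVX-ZA libraries lie above both OVX-PPA libraries. The 3 OVX-HA libraries lie below the 3 OVX-PBS libraries for Mb, and the 3 OVX-PBS libraries lie below the 3 sham libraries for Fbxo32.

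The ratio of a slow gene to its fast paralog in the same library does not depend on how the libraries are scaled. For Tnnt1 over Tnnt3 the log2 ratio of counts, not corrected for length, was -3.73, -2.89 and -4.14 in OVX-HA, -3.81 and -3.97 in OVX-PPA, -3.97, -4.14 and -4.12 in OVX-ZA, -4.01, -3.86 and -3.32 in OVX-PBS and -3.95, -2.77 and -3.98 in sham. Single libraries stood out, in 3 different groups: sham 2, OVX-HA 2 and OVX-PBS 3 were the highest. For Myl2 over Mylpf the log2 ratio was -2.43, -1.56 and -2.69 in OVX-HA, -2.37 and -2.74 in OVX-PPA, -2.65, -2.88 and -2.85 in OVX-ZA, -2.80, -2.62 and -1.98 in OVX-PBS and -2.66, -1.26 and -2.53 in sham. Sham 2, OVX-HA 2 and OVX-PBS 3 were the 3 highest libraries, in this order, for all 6 pairs of troponin, light chain and Myoz2 over Myoz1 genes. They were so too for the myosin heavy chains Myh7 over Myh4, which are outside the 36 genes and were looked at after their values were seen.

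Over the 14 libraries the SD of the 6 log2 ratios was 0.34 to 0.52. Relative to the mean of the other pairs it was 0.06 to 0.19, so the pairs moved together. Mybpc1 over Mybpc2 departed from them, with an SD of 0.48 relative to the others and its highest libraries in OVX-PBS 1, OVX-PPA 1 and OVX-HA 1. The 3 OVX-ZA libraries lay close together: the log2 ratio was -3.73 ± 0.14 for Tnni1 over Tnni2 and -3.41 ± 0.03 for Myl3 over Myl1 (SD, n = 3). The latter SD was the smallest of the 6 pairs in OVX-ZA, and the largest was 0.16, for Tnnc1 over Tnnc2. The 2 OVX-PPA libraries were also close for Tnni1 over Tnni2 (-3.62 ± 0.13), and less so for Myl3 over Myl1 (-3.08 ± 0.27). In OVX-PBS these ratios were -3.54 ± 0.50 and -2.92 ± 0.37, and in sham -3.27 ± 0.78 and -2.78 ± 0.82. These wider SDs include the single libraries OVX-PBS 3 and sham 2, which stood out above. Group differences of these ratios were not tested.

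**Figure D4:**
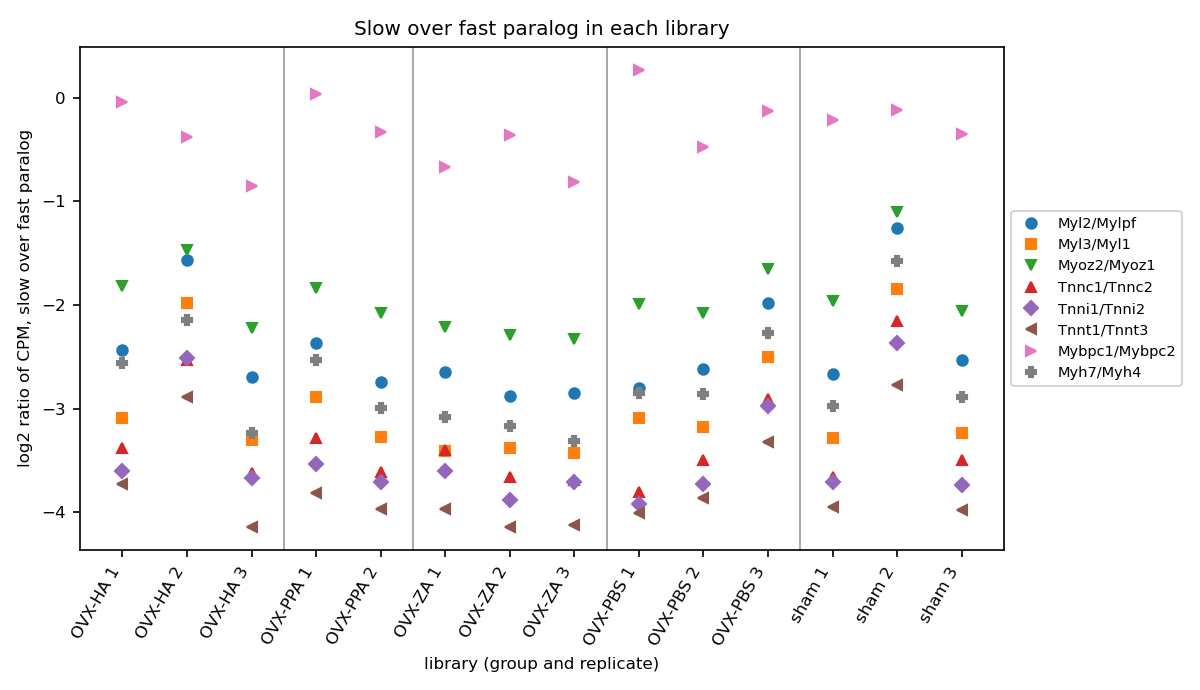
Log2 ratio of each slow gene to its fast paralog (y axis) in each library (x axis, by group), 1 marker per pair. Sham 2, OVX-HA 2 and OVX-PBS 3 stand above the other libraries for the troponin, light chain, Myoz2 over Myoz1 and Myh7 over Myh4 pairs, and Mybpc1 over Mybpc2 does not follow them.

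Z-disc genes had moderate levels. Actn2, an alpha-actinin that crosslinks actin at the Z-disc, measured 650.2, 637 and 676 CPM in OVX-HA, 582 and 532 in OVX-PPA, 600.1, 459.5 and 675 in OVX-ZA, 933, 698 and 607 in OVX-PBS and, in sham, 491, 524 and 719. Its OVX-PBS libraries were all above both OVX-PPA libraries. The differences were -0.42 ± 0.223 for OVX-PPA and -0.37 ± 0.198 for OVX-ZA against OVX-PBS, and 0.37 ± 0.198 for OVX-PBS against sham (log2, edgeR). Without OVX-PBS 1 they were -0.23, -0.17 and 0.18, so each was over 1.5 times smaller. Actn3, the alpha-actinin of fast fibres, measured 1953, 1905 and 3587 CPM in OVX-HA, 1999 and 2251 in OVX-PPA, 3045, 2240.3 and 3558 in OVX-ZA, 2887, 3008 and 1923 in OVX-PBS and, in sham, 1845, 1379.5 and 2797. Its difference between OVX-ZA and OVX-PBS was 0.18 ± 0.319 (edgeR). Tcap, the titin cap, measured 895, 801 and 1123 CPM in OVX-HA, 1036 and 879.8 in OVX-PPA, 1079, 938 and 1158 in OVX-ZA, 1470.3, 1266 and 891 in OVX-PBS and, in sham, 879.5, 702 and 1155. It was 0.41 ± 0.225 in OVX-PBS against sham and -0.36 ± 0.225 in OVX-HA against OVX-PBS (edgeR), and 0.24 and -0.20 without OVX-PBS 1. Myoz2, a calcineurin-binding Z-disc protein of slow fibres and heart, measured 119, 134 and 129 CPM in OVX-HA, 123 and 101 in OVX-PPA, 122, 94 and 129 in OVX-ZA, 158, 146 and 121 in OVX-PBS and, in sham, 104, 131 and 143. The spread of this gene was the smallest of the 36 (SD of log2 CPM 0.21), and its differences were -0.33 ± 0.178 for OVX-PPA and -0.30 ± 0.158 for OVX-ZA against OVX-PBS (edgeR). Without OVX-PPA 2 the first was -0.19, and without OVX-ZA 2 the second was -0.17.

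The other Z-disc and attachment genes were Myoz1, Des, Ldb3, Myot, Xirp1, Xirp2, Nrap and Klhl41. All 12 genes of this role had a difference above 0 in OVX-PBS against sham (median 0.31, range 0.14 to 0.41), and 0 had an unadjusted p under 0.05 (edgeR). Against OVX-PBS, 11 of 12 were below 0 in OVX-HA (median -0.17), all 12 in OVX-PPA (median -0.32) and 10 of 12 in OVX-ZA (median -0.18). Nrap, which links actin to the fibre membrane, was below OVX-PBS in both OVX-PPA libraries (-0.30 ± 0.246, and -0.16 without OVX-PBS 1; edgeR).

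Metabolic genes other than myoglobin were led by Ckm. Ckm, the creatine kinase that buffers ATP, measured 4800.1, 4639.6 and 7384 CPM in OVX-HA, 5054 and 5069 in OVX-PPA, 6869, 5214 and 7861 in OVX-ZA, 7965, 7603 and 4771 in OVX-PBS and, in sham, 5167, 3407 and 7049. Pvalb, the calcium buffer of fast fibres, measured 1199, 1336 and 2072 CPM in OVX-HA, 1356 and 1452 in OVX-PPA, 1700.1, 1556 and 2195 in OVX-ZA, 1591, 2213 and 1227 in OVX-PBS and, in sham, 1412, 830.2 and 1664. For both genes sham 2 was the lowest library and the groups overlapped in every comparison with OVX-PBS. Eno3, muscle enolase, and Pygm, muscle glycogen phosphorylase, had differences of -0.14 and -0.15 for OVX-HA, -0.34 and -0.31 for OVX-PPA and 0.05 and 0.05 for OVX-ZA, each against OVX-PBS.

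Mb (ENSMUSG00000018893, chr15:77015487-77050670, mm10) encodes myoglobin, the oxygen store of oxidative fibres. It measured 1405, 1213 and 1482 CPM in OVX-HA, 1542 and 1345 in OVX-PPA, 1345, 1287 and 1511 in OVX-ZA, 2671, 1927 and 1502 in OVX-PBS and, in sham, 1515, 1036 and 1835. Every OVX-HA library was below every OVX-PBS library, and 2 of the OVX-PBS libraries were above all other groups. The log2 differences from OVX-PBS were -0.57 ± 0.236, adjusted p = 1 for OVX-HA, -0.49 ± 0.267, adjusted p = 1 for OVX-PPA and -0.56 ± 0.236, adjusted p = 0.899 for OVX-ZA (edgeR). Their 95% intervals were -1.09 to -0.06, -1.07 to 0.09 and -1.07 to -0.04. In OVX-PBS against sham it was 0.48 ± 0.236, adjusted p = 0.913. These values share the library OVX-PBS 1: without it the differences were -0.33 for OVX-HA, -0.25 for OVX-PPA and -0.31 for OVX-ZA against OVX-PBS, and 0.23 for OVX-PBS against sham. Without sham 2 the difference from sham was 0.24.

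Fbxo32 (ENSMUSG00000022358, chr15:58175879-58214932, mm10) encodes atrogin-1, and Trim63 encodes MuRF1, ubiquitin ligases that mark muscle proteins for degradation and are induced in wasting muscle. Fbxo32 measured 166, 121 and 213 CPM in OVX-HA, 177 and 176 in OVX-PPA, 258, 180.2 and 245 in OVX-ZA, 185, 192 and 148 in OVX-PBS and, in sham, 241, 197 and 246. It was the gene of the 36 that ran most against the others in OVX-PBS against sham: -0.38 ± 0.2, adjusted p = 0.913 (95% interval -0.82 to 0.05; edgeR), with all 3 OVX-PBS libraries below all 3 sham libraries. In OVX-ZA the level was 0.38 ± 0.2, adjusted p = 0.899 relative to OVX-PBS and 0.00 relative to sham (95% interval -0.44 to 0.43; edgeR). In OVX-HA it was -0.45 ± 0.2 and in OVX-PPA -0.37 ± 0.226 relative to sham (edgeR). The OVX-HA value was -0.29 without OVX-HA 2. Trim63 measured 58.4, 51.2 and 75.8 CPM in OVX-HA, 66.2 and 62.8 in OVX-PPA, 85.5, 61.1 and 88.5 in OVX-ZA, 83.1, 80 and 57.5 in OVX-PBS and, in sham, 69.2, 72.1 and 84.7. The 3 OVX-PBS libraries overlapped the 3 sham libraries for Trim63 (mean 73.5 and 75.3 CPM), and its difference was -0.04 ± 0.187 (edgeR).

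A muscle content index was made from 10 muscle genes outside the 36 (Myh1, Myh2, Myh4, Atp2a1, Ryr1, Casq1, Cacna1s, Jph1, Stac3 and Cacng1), as the mean of their log2 CPM. It was 9.66, 9.33 and 10.15 in OVX-HA, 9.65 and 9.74 in OVX-PPA, 9.92, 9.67 and 10.16 in OVX-ZA, 10.19, 10.07 and 9.55 in OVX-PBS and 9.63, 9.06 and 10.08 in sham. Its SD over the 14 libraries was 0.338, and the 3 sham libraries alone spanned 9.06 to 10.08. For 28 of the 36 genes the log2 ratio to this index varied less than the gene itself. The median SD over the 36 genes was 0.317 for log2 CPM and 0.153 for the ratio, against 0.282 and 0.454 for all genes tested. For Ckm the SD was 0.37 alone and 0.09 relative to the index, and for Acta1 0.32 and 0.12.

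The other 8 genes did not tighten. The slow genes Myl3, Tnni1, Tnnc1, Myl2, Tnnt1 and Myoz2 varied more relative to the index than alone: the SD was 0.34 alone and 0.51 relative to it for Myl3, and 0.32 and 0.50 for Tnni1. Actn2 (0.26 and 0.27) and Fbxo32 (0.31 and 0.32) kept their SD. Mybpc1 tightened from 0.27 to 0.18, unlike the other slow genes. The index holds Myh1, Myh2 and Myh4, which are heavy chains of fast fibres, and no heavy chain of slow fibres.

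**Figure D5:**
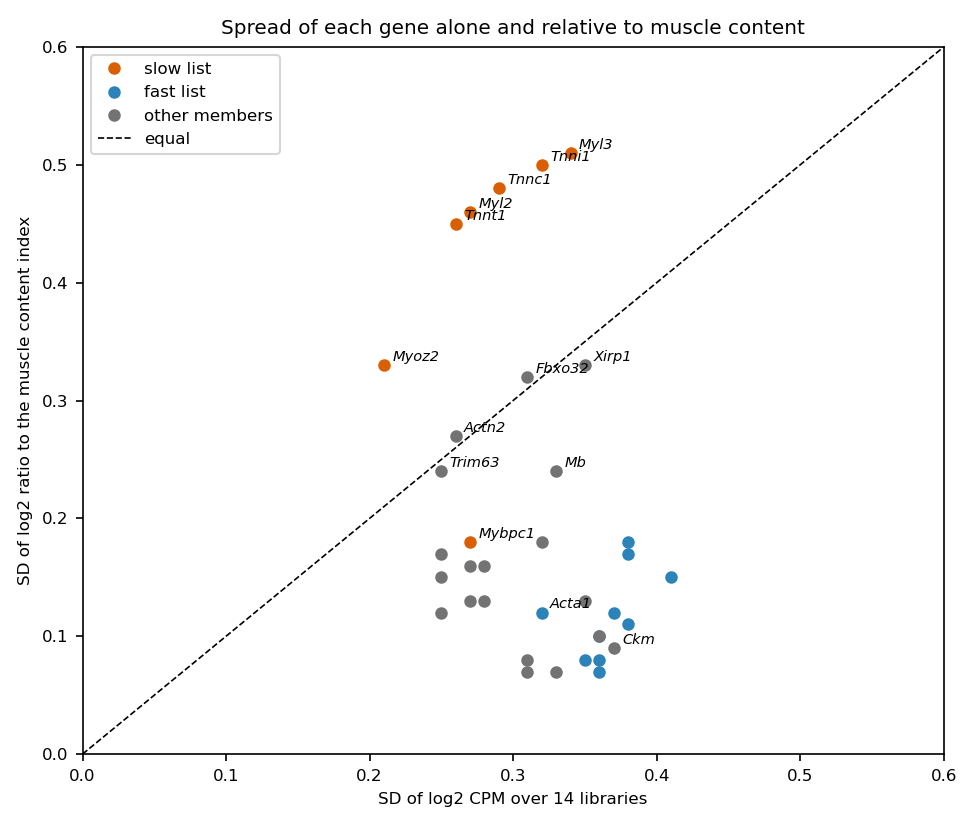
SD over the 14 libraries of the log2 CPM of each of the 36 genes (x axis) against the SD of its log2 ratio to the muscle content index (y axis), with the line of equality. The 28 genes below the line vary less relative to the index than alone, and the slow genes Myl3, Tnni1, Tnnc1, Myl2, Tnnt1 and Myoz2 lie above it.

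Relative to the index, other groups stood apart for Fbxo32 and Mb than in CPM. The log2 ratio of Fbxo32 to the index was -2.28, -2.41 and -2.41 in OVX-HA, -2.19 and -2.28 in OVX-PPA, -1.91, -2.18 and -2.23 in OVX-ZA, -2.66, -2.48 and -2.34 in OVX-PBS and -1.72, -1.43 and -2.14 in sham. All OVX-HA, OVX-PPA and OVX-PBS libraries were below all sham libraries on this scale, and OVX-ZA overlapped sham; in CPM OVX-HA had overlapped sham. For Mb the log2 ratio was 0.80, 0.91 and 0.38 in OVX-HA, 0.94 and 0.65 in OVX-PPA, 0.47, 0.66 and 0.40 in OVX-ZA, 1.19, 0.84 and 1.00 in OVX-PBS and 0.93, 0.96 and 0.76 in sham. All OVX-ZA libraries lay below all OVX-PBS and all sham libraries, which they did not in CPM, and OVX-HA overlapped OVX-PBS. Mb was not alone in this, since OVX-ZA was also below OVX-PBS and sham for Des, Mybpc1 and Myoz2. For Des the ratio was 0.40 to 0.50 in OVX-ZA, 0.66 to 0.68 in OVX-PBS and 0.62 to 0.92 in sham. The share of all genes whose groups separate on this scale was not counted, for Fbxo32 or for Mb. The heavy chains in the index are those of fast fibres, and OVX-ZA had low slow over fast ratios. Its mean log2 ratio was -3.41 for Myl3 over Myl1 (-2.92 in OVX-PBS, -2.78 in sham). For Tnni1 over Tnni2 it was -3.73 (-3.54 in OVX-PBS, -3.27 in sham). The part of fibre type in the lower OVX-ZA ratios to the index was not tested.

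With the index as a covariate in the edgeR fit, Fbxo32 differed by -0.60 ± 0.133 in OVX-PBS against sham (adjusted p = 0.904) and by 0.39 in OVX-ZA against OVX-PBS (adjusted p = 0.839). Mb differed by -0.52 ± 0.131 in OVX-ZA against OVX-PBS (adjusted p = 0.734). Neither passed, and 0 of the 36 genes did. In that fit 1 of the 36 genes had an unadjusted p under 0.05 in OVX-PBS against sham (2.67% of all genes) and 5 in OVX-ZA against OVX-PBS (4.42% of all genes): Fbxo32 above 0, and Mb, Actn2, Mybpc1 and Des below. It had 2 in OVX-HA against sham (Fbxo32 -0.56 and Trim63 -0.37; 2.39% of all genes) and 1 each in OVX-PPA against sham (Fbxo32 -0.43; 2.44%), OVX-HA against OVX-PBS (Mb -0.39; 1.14%) and OVX-ZA against OVX-HA (Fbxo32 0.35; 3.37%). The other 4 comparisons had 0. The covariate fit was not repeated with single libraries left out. Sham 2 had the lowest index (9.06) and the highest log2 ratio to it for both Fbxo32 (-1.43) and Trim63 (-2.89). The part of this library in the differences from sham was not tested. The median difference of the 36 genes in the covariate fit was 0.05 in OVX-PBS against sham (all genes 0.01). Against OVX-PBS it was -0.01 for OVX-HA, -0.11 for OVX-PPA and -0.05 for OVX-ZA (all genes 0, -0.02 and -0.04). In OVX-PPA against OVX-PBS 32 of the 36 genes were still below 0. Brown fat markers, a tissue rich in oxidative genes, summed to 256, 60.4 and 35.5 CPM in OVX-HA, 286 and 142 in OVX-PPA, 221, 183 and 113 in OVX-ZA, 254, 314 and 123 in OVX-PBS and 344, 118 and 316 in sham. Their part in these differences was not tested.

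Hippuric acid and the hydroxyphenyl propionic acid were given for the same 8 weeks, with doses not given in the sources used here. Between OVX-HA and OVX-PPA, 30 of the 36 genes were above 0 and 6 below, with a median of 0.14 (all genes 0.02, 55.3% above 0) that turned to -0.07 without OVX-HA 3, and 0 had an unadjusted p under 0.05 (1.19% of all genes, edgeR). Actn2 and Xirp1 were above OVX-PPA in every OVX-HA library, against 6.64% of all genes. The smallest p on each side belonged to Tnnt1 (0.38 ± 0.224, 95% interval -0.11 to 0.86, and 0.10 without OVX-HA 2) and Fbxo32 (-0.08 ± 0.223, 95% interval -0.57 to 0.41; edgeR). For Mb the difference was -0.08 (95% interval -0.65 to 0.49; edgeR). The 95% interval of each of the 36 genes included 0, which does not show that the acids act alike.

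Zoledronic acid was also set against both acids. In OVX-ZA against OVX-HA the median was 0.15 (all genes -0.05; 0.02 without OVX-ZA 3, 0.07 without OVX-HA 2, 0.25 without OVX-ZA 2 and 0.34 without OVX-HA 3), with 27 genes above 0 (40.8% of all genes), and Fbxo32 had an unadjusted p under 0.05 (0.45 ± 0.201, adjusted p = 1; 3.77% of all genes; edgeR). Myl3, the slow essential light chain, had the smallest p below 0 (-0.39 ± 0.248, and 0.02 without OVX-HA 2 and OVX-PBS 1; edgeR). In OVX-ZA against OVX-PPA the median was 0.21 (all genes -0.03; 0.12 without OVX-ZA 3 and 0.36 without OVX-ZA 2) and 34 genes were above 0 (43.7% of all genes), and 0 had an unadjusted p under 0.05 (2.06% of all genes; edgeR). All 3 OVX-ZA libraries were above both OVX-PPA libraries for 9 genes (Ckm, Tnnt3, Tnnc2, Myl1, Neb, Myoz1, Pvalb, Xirp2 and Fbxo32), against 7.18% of all genes. The extremes there were Fbxo32 (0.37 ± 0.226) and Mb (-0.06 ± 0.263; edgeR).

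Against sham, the median was 0.11 in OVX-HA (31 of 36 genes above 0; all genes 0.01, 51.7% above 0). For OVX-PPA it was -0.04 (12 above 0; all genes -0.01, 46.6% above 0), and for OVX-ZA 0.15 (27 above 0; all genes -0.05, 39.3% above 0). These medians rest on single libraries. The OVX-HA median turned to -0.09 without OVX-HA 3 and to -0.11 without sham 2, and was 0.30 without sham 3. Without sham 3 the OVX-PPA median turned to 0.21 and the OVX-ZA median was 0.39, and without sham 2 they were -0.16 and 0.05. The genes with the smallest p were Myl3 (0.30 ± 0.248) and Fbxo32 in OVX-HA, Mylpf (0.16 ± 0.335) and Fbxo32 in OVX-PPA, and Myl1 (0.51 ± 0.279, and 0.30 without sham 2) and Myoz2 (-0.13 ± 0.158) in OVX-ZA (edgeR). Fbxo32 in OVX-HA was the single gene of the 36 with an unadjusted p under 0.05 in these comparisons, against 1.74% of all genes; in OVX-PPA and OVX-ZA 0 had, against 1.82% and 2.79% of all genes (edgeR). Trim63 and Fbxo32 were below sham in both OVX-PPA libraries, against 6.53% of all genes.

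Muscle genes outside the 36 had like medians. The 8 myosin heavy chains, the motors of the thick filament, had medians of -0.09, -0.31 and -0.22 for OVX-HA, OVX-PPA and OVX-ZA against OVX-PBS and 0.20 for OVX-PBS against sham. Myh2 was -0.56 ± 0.324 in OVX-HA and Myh7b -0.37 ± 0.148 in OVX-ZA, each against OVX-PBS (edgeR); the Myh2 value was -0.27 without OVX-PBS 1 and -0.30 without OVX-HA 2. The 16 calcium handling genes had medians of -0.19, -0.27 and -0.05 in the same order for the compounds and 0.31 for OVX-PBS against sham. Sln, sarcolipin, an inhibitor of the calcium pump, measured 24.7, 39.6 and 24.8 CPM in OVX-HA, 27.9 and 29.7 in OVX-PPA, 22.4, 19.1 and 27.2 in OVX-ZA, 35.6, 38.6 and 38.1 in OVX-PBS and, in sham, 36.9, 42.9 and 38.4. It was lower in all 3 OVX-ZA libraries than in any OVX-PBS library (-0.71 ± 0.181, adjusted p = 0.899; edgeR). Pln, phospholamban, was 0.52 ± 0.188 in OVX-PBS against sham (edgeR), at 2.56 to 5.65 CPM.

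Among 10 genes of oxidative metabolism the medians were -0.43, -0.32 and -0.33 for OVX-HA, OVX-PPA and OVX-ZA against OVX-PBS, and 0.28 for OVX-PBS against sham. In OVX-HA against OVX-PBS 3 of the 10 had an unadjusted p under 0.05 below 0, against 1.47% of all genes in either direction, and 0 passed the adjustment (edgeR). The count was 1 without OVX-PBS 1, OVX-PBS 2, OVX-HA 2 or OVX-HA 3, and 7 without OVX-PBS 3. Fabp3, the fatty acid carrier of muscle, measured 144, 165 and 129 CPM in OVX-HA, 179.6 and 139 in OVX-PPA, 126, 138 and 155 in OVX-ZA, 296, 221 and 185 in OVX-PBS and, in sham, 150.5, 137 and 217. Its levels resembled those of Mb, with OVX-PBS 1 highest, and the differences from OVX-PBS were -0.68 ± 0.206 for OVX-HA, -0.55 ± 0.233 for OVX-PPA and -0.75 ± 0.206 for OVX-ZA (edgeR). Without OVX-PBS 1 the OVX-PPA value was -0.35. Cpt1b, which admits fatty acids to mitochondria, was -0.55 ± 0.235 in OVX-HA against OVX-PBS (edgeR), and -0.32 without OVX-PBS 1. Among 12 glycolysis and energy genes Ckmt2, the mitochondrial creatine kinase, was -0.60 ± 0.259 in OVX-HA against OVX-PBS, and Pgam2 0.45 ± 0.272 in OVX-PBS against sham (edgeR). Without OVX-PBS 1 the Ckmt2 value was -0.31, and the Pgam2 value was 0.19 without sham 2 and 0.74 without sham 3.

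Of 16 genes of the atrophy programme, counted without Fbxo32 and Trim63, 13 were below 0 in OVX-HA against OVX-PBS and 1 had an unadjusted p under 0.05 (edgeR; 1.47% of all genes). That gene was Pdk4, the kinase that blocks pyruvate use, with 325, 179 and 179.7 CPM in OVX-HA, 339 and 329 in OVX-PPA, 427, 245 and 367 in OVX-ZA, 605, 367 and 401 in OVX-PBS and, in sham, 532, 262 and 567. The group means were 228 CPM in OVX-HA and 458 CPM in OVX-PBS (95% interval of the log2 difference -1.73 to -0.28; adjusted p = 1, edgeR), with every OVX-HA library below every OVX-PBS library. In OVX-PBS against sham it was 0.01. The libraries lowest in Pdk4, OVX-HA 2 and OVX-HA 3, were also the lowest in brown fat markers. Those markers summed to 35.5 to 256 CPM in OVX-HA and 123 to 314 CPM in OVX-PBS, and their part in the Pdk4 difference was not tested. Eif4ebp1 was -0.33 ± 0.176 in OVX-HA against OVX-PBS (edgeR), and -0.19 without OVX-HA 3 and -0.22 without OVX-PBS 1. Cav3, the caveolin of the muscle membrane, was 0.43 ± 0.242, and at the neuromuscular junction the acetylcholine receptor subunits Chrne and Chrnd were 0.49 ± 0.196 and 0.40 ± 0.232, all in OVX-PBS against sham (edgeR). The Cav3 value was 0.18 without sham 2 and 0.71 without sham 3.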

How the data were processed

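Poly(A) RNA of tibia was made into stranded libraries and read as single reads of 75 nt, per the labels' protocols. Tools named in the submitters' processing notes, without role or order, were STAR 2.7.8a, Bowtie2 2.2.5, CASAVA 1.8.1 and Partek, with build mm10. How reads were counted, on which annotation and whether by strand is not given in the sources used here. The input was the estimated counts that the authors deposited, 1 value per symbol and library, not normalized, of which 20.7% lay over 0.01 away from a whole number. A table the authors deposited as TMM-normalized was not used.

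Counts were rounded, genes kept with the edgeR filter by group (21761 genes) and libraries scaled by TMM. All 14 libraries entered 1 quasi-likelihood model in edgeR 4.0.16 (R 4.3.3), with 5 group means and 9 residual degrees of freedom; the biological coefficient of variation was 25%. Differences are log2 fold changes ± standard error, two-sided, with Benjamini-Hochberg adjustment over all genes. Levels are TMM-scaled CPM, and log2 CPM uses a prior count of 2. DESeq2 1.42.0 was an alternative. Leaving out single libraries for genes outside the 36 was added after the data were seen. With 3 libraries against 3, or 2 against 3, an exact permutation test of a single value cannot go below p = 0.1. Gene IDs and coordinates came from GENCODE (mm10), which held all 36 genes. The scripts were tested on simulated counts.

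The genes, lists and rule for named genes were chosen with earlier results of these data known. The rule gives values in every library for 14 fixed genes and for the 3 genes per direction with the smallest p in 4 comparisons (each compound against OVX-PBS, and OVX-PBS against sham), the smallest p per direction in the other 6 comparisons, and up to 2 genes of each other list. Bone, fat and nervous system lists served as markers only. A gene that the rule also names is not reported here. Myh7 over Myh4 falls outside the rule and was chosen after its values were seen.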

Additional observations from a re-analysis of the deposited data

How the results depend on the processing

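In no setting did any of the 36 genes pass the adjusted threshold: 0 passed with DESeq2 size factors, TMM without muscle genes, no filter beyond 1 count, DESeq2, only the compared groups in the fit, the index as covariate, without the 2 libraries low in central nervous system transcripts, or without any 1 library. Where OVX-PPA was left with 1 library, it was assumed to vary like the other groups. Over all genes DESeq2 called 32 in OVX-ZA against OVX-PBS, 29 against OVX-HA, 15 against sham and 14 against OVX-PPA, 50 in the test of any difference and 1 in OVX-PBS against sham, where edgeR called 0, 1, 0, 0, 1 and 0. Without the 2 libraries edgeR called 6, 4, 2 and 2 in the same comparisons and 5 in the test of any difference; without OVX-HA 2 alone it called 12, 4, 4, 2 and 7. With no filter it called 3, 8, 2, 0 and 5. The median over the 36 genes moved by less than the SD of single libraries within groups (0.264) in every setting. That bound is wide beside the medians, so staying under it does not show that they are stable. The median ran, with 1 library left out, from 0.11 to 0.55 in OVX-PBS against sham, and against OVX-PBS from -0.40 to -0.07 for OVX-HA, -0.41 to -0.22 for OVX-PPA and -0.20 to 0.05 for OVX-ZA. The last of these ranges crossed 0. The medians of OVX-HA and OVX-PPA against sham and of OVX-HA against OVX-PPA also turned direction, as given above.

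Small differences of single genes turned direction, and the cause was not tested. Without OVX-HA 2 and OVX-PBS 1, Myl2, Tnni1 and Tnnc1 were -0.23, -0.34 and -0.36 in OVX-HA against OVX-PBS (0.08, 0.04 and 0.02 with them), Myl3 was -0.06 in OVX-HA against sham and 0.02 in OVX-ZA against OVX-HA, and Fbxo32 was 0.07 in OVX-HA against OVX-PPA. With the index as covariate Tnni1 was -0.02 and Tnnc1 -0.03 in OVX-HA against OVX-PBS. With 1 library left out, the ranges that crossed 0 were -0.13 to 0.07 for Trim63 in OVX-PBS against sham, -0.16 to 0.25 for Myl2, -0.24 to 0.23 for Tnni1 and -0.23 to 0.17 for Tnnc1 in OVX-HA against OVX-PBS, -0.04 to 0.08 for Fbxo32 in OVX-PPA against OVX-PBS and -0.30 to 0.06 in OVX-HA against OVX-PPA, -0.07 to 0.50 for Myl3 in OVX-HA against sham and -0.55 to 0.03 in OVX-ZA against OVX-HA, -0.08 to 0.38 for Mylpf in OVX-PPA against sham, and -0.13 to 0.03 for Mb in OVX-ZA against OVX-PPA.

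The replicate numbers did not pair the libraries: correlations of same-numbered libraries ran from -0.55 to 0.43. A fit with the number as a replicate block called 0 of the 36 genes, with a median of 0.35 in OVX-PBS against sham.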
